A study of Mus musculus with 310 samples.

Results

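The enzymes described here carry out the part of glycolysis from glucose-6-phosphate to lactate: Gpi1, Aldoa, Tpi1, Gapdh, Pgk1, Pgam1, Pkm and Ldha. They were chosen by name from a list of 8 glycolytic enzymes, and their estimated read counts were followed in every plate, replicate and group of a single-cell RNA-seq experiment. Of the 8 listed genes, 7 were found by name among the 14068 genes of the table. Aldoa was represented by a row named Aldoa-I, and the annotation holds 2 genes with the symbol Aldoa, so Aldoa-I is reported beside the other 7 and enters no sum over them.

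Glycolysis splits glucose into pyruvate in the cytosol and yields ATP and NADH without oxygen, and lactate dehydrogenase then turns pyruvate into lactate and restores NAD+. Epidermal keratinocytes are known to make much of their ATP in this way, and hair follicle stem cells are known for high lactate dehydrogenase activity. Many of these genes are known targets of hypoxia-inducible factor, which binds DNA at sites with the core ACGTG or GCGTG.

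The study asked whether epidermal cells derived from Lrig1-expressing stem cells keep a trace of an earlier wound in aged tail skin. Cells came from mice of a mixed CBA C57BL/6 background carrying Lrig1-EGFP-ires-CreERT2 and Rosa26-fl/STOP/fl-tdTomato, so the labelled cells were those in which the Lrig1 locus had driven Cre, and their descendants. Hydroxytamoxifen had been put on the tail once, and tomato-positive keratinocytes were sorted singly into plates for a modified Smart-seq2 protocol. The time label of the 310 cells was either 38w or 38wUW, and the groups are named by it. The group 38w held 145 cells in the replicates RepI (70 cells, of which 53 were on plate C114 and 17 on plate C118) and RepL (75 cells, plate C119), and the group 38wUW held 165 cells in RepM (82 cells, plate C128) and RepN (83 cells, plate C129). Each column of the table is counted as a cell, although the columns may not all be distinct cells. By their titles the 310 columns come from 299 wells: 11 of the 13 columns of C114 with a suffix share a well with a column without one, and 2 columns, on C119 and C129, carry the title suffix MBULK, which is not explained in the labels. Over all genes the log2(CPM + 1) values of the 11 same-well pairs had a median Pearson's r of 0.516 (0.380 to 0.601), against 0.445 over all pairs on C114. Sums per replicate are the same whether or not a pair is 1 cell, and with all 15 suffixed columns left out the members' log2 differences had a median of 1.43 in place of 1.45. What UW stands for, which of the groups had been wounded and how many mice made up a replicate are not stated in the labels, so differences are given as 38w against 38wUW. With 2 replicates per group, p-values measure the spread between these samples, which may be technical.

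Each cell had 11711 to 721564 reads, with a median of 61294, and the 4 replicates held between 5472070 and 12946742 reads. Markers of keratinocytes (Krt5, Krt14, Perp, Dsp, Sfn and Trp63), taken as a list, had reads in every cell, with Krt14 found in 90% and Krt5 in 74.5% of cells, and summed to 11956 to 27420 CPM (reads scaled to a total of 1000000) in the 4 replicates. Only 2 of 7 immune markers, 2 of 4 melanocyte markers and 4 of 5 fibroblast markers were in the table. Those of immune cells summed to at most 2.93 CPM in any replicate. Those of melanocytes summed to at most 15.1 CPM and those of fibroblasts to at most 62.7 CPM, the last in RepI. By plate, the immune markers reached 7.56 CPM on C118 and 0 on C114, and the fibroblast markers 75.3 CPM on C114, of which Dcn made up 74.6 CPM. None of the Merkel cell and erythroid markers was in the table. The endothelial list was at 1264 to 8773 CPM through Pecam1 alone, which had reads in all 310 cells, whereas Kdr was at most 0.581 CPM on any plate. The part of these reads in the results was not tested. Plate C114 stood apart from the others: in its median cell 31.9% of reads came from ribosomal protein genes and 2.77% from mitochondrial genes, against 3.61% to 6.86% and 9.69% to 33.8% on the other 4 plates. Values are therefore given per plate as well as per replicate.

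The promoters of Ldha, Pgk1 and Gapdh are shown because Ldha and Gapdh were the most abundant members, and Pgk1 and Gapdh differed least and most between the plates of RepI. The 250 bases before their transcription starts are taken from RefSeq (GRCm38.p6), 5′ to 3′ on the strand of the gene, with each match of ACGTG or GCGTG or of their reverse complements CACGT and CACGC in capitals. Overlapping matches run together, since CACGTG reads ACGTG on both strands. They lie at chr7:46845554-46845803 (Ldha, plus strand, the first of its 2 annotated starts), chrX:106186850-106187099 (Pgk1, plus strand) and chr6:125165774-125166023 (Gapdh, minus strand). By the GENCODE M21 gene positions given further below, the Ldha and Gapdh windows lie inside the gene, since the 2 annotations place the outermost start differently.
Ldha: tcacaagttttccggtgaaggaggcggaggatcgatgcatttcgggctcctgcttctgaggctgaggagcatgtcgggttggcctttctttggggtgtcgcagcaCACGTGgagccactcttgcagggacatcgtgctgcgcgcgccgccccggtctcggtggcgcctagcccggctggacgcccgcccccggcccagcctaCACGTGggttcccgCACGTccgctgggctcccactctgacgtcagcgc
Pgk1: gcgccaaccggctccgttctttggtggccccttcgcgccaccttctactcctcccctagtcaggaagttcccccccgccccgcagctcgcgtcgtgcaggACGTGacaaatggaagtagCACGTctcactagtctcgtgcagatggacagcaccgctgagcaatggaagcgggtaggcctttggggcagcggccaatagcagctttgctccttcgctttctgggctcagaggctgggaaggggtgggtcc
Gapdh: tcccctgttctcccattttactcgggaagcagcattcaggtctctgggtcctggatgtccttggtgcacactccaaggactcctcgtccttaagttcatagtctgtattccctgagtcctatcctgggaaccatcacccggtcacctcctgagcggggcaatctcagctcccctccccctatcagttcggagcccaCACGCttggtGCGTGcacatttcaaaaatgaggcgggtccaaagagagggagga
The Ldha window held ACGTG at 3 separate places, the Pgk1 window at 2, and the Gapdh window held GCGTG at 2 and no ACGTG. Over the windows of all 7 members, 4 members had ACGTG (Pgk1, Pgam1, Pkm at its second start, and Ldha) and 3 had GCGTG (Gapdh, Pgam1, and Ldha at its second start), while the single windows of Gpi1 and Tpi1 had neither. Of all 32851 RefSeq promoter windows of the same length, 16.6% held ACGTG and 28.2% held GCGTG, and of the 27025 genes they belong to, 18.5% and 30.9% did in at least 1 window. Either motif was in 5 of the 7 members and in 41.5% of genes. The members' windows had a GC content of 54.4% to 67.2%, against a median of 52.4% over all windows, and no enrichment was tested. A match describes letters in a window and not a bound site.

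Within a cell's transcriptome the 7 enzymes differed widely in level. Per kilobase of their longest protein-coding transcript, Gapdh (1420 bases), which oxidises glyceraldehyde-3-phosphate, had a mean of 398 CPM per kb over the 4 replicates (SD 506, n = 4). Ldha (1815 bases), the lactate dehydrogenase subunit A, followed with 328 CPM per kb (SD 188). These levels overlapped, and their order was not fixed: Gapdh was first in RepI and second in the other 3 replicates, where Ldha was first. Next came Tpi1 with 82.3 (SD 98.4), Pgk1 with 76.0 (SD 35.7), Pgam1 with 63.4 (SD 36.5) and Pkm with 55.0 CPM per kb (SD 45.3). Neighbouring means among these 4 were closer than their SDs over replicates, and their order was not fixed. Tpi1 ranked 3 of the 7 in RepI but 6, 5 and 5 in RepL, RepM and RepN, where Pgk1 ranked 3. Pgk1 was above Pgam1 in each of the 4 replicates. Gpi1 was at 24.5 CPM per kb (SD 18.5) and was the lowest of the 7 in each of the 4 replicates.

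Replicate values follow the order RepI, RepL, RepM and RepN, and gene positions (chromosome:start-end) are those of GENCODE M21 on GRCm38. The members of the upper, ATP-consuming part of the pathway were Gpi1, Aldoa-I and Tpi1. Gpi1 (7:34201330-34230336), which turns glucose-6-phosphate into fructose-6-phosphate, measured 147 and 49.3 CPM in 38w and 61.0 and 24.9 CPM in 38wUW. Aldoa-I, named after the aldolase that cleaves fructose-1,6-bisphosphate, was at 353, 97.6, 128.3 and 35.1 CPM in the same order. Tpi1 (6:124810586-124814296), which interconverts the triose phosphates made by aldolase, was at 368, 63.8, 72.0 and 25.8 CPM. In all 3 the groups overlapped: RepI was highest and RepN lowest, but RepM of 38wUW lay above RepL of 38w.

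The next members along the pathway were Gapdh, Pgk1 and Pgam1. Gapdh (6:125161715-125166467), whose step yields NADH, measured 1636 and 255 CPM in 38w and 263 and 105 CPM in 38wUW. Pgk1 (X:106187100-106203699), which makes the first ATP of the pathway, was at 236, 103, 113.9 and 102 CPM, so that the 3 replicates other than RepI lay close together. Pgam1 (19:41911923-41918660), which moves the phosphate of 3-phosphoglycerate, was at 206, 83.4, 102 and 58.8 CPM. Here too RepM was above RepL for each gene, and the groups overlapped.

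At the end of the pathway, Pkm (9:59656368-59679375) makes pyruvate and the last ATP, and Ldha (7:46841475-46855627) makes lactate. Pkm measured 290 and 116 CPM in 38w and 95.2 and 33.5 CPM in 38wUW. Ldha was at 1097, 505, 434 and 342 CPM. For these 2 of the 8 genes both 38w replicates lay above both 38wUW replicates, an arrangement that 12.6% of the 11760 tested genes had. On plate C118 of RepI, however, Pkm was at 43.6 and Ldha at 414 CPM, both below RepM. RepI was the highest replicate for all 8, against 30.9% of tested genes.

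**Figure D1:**
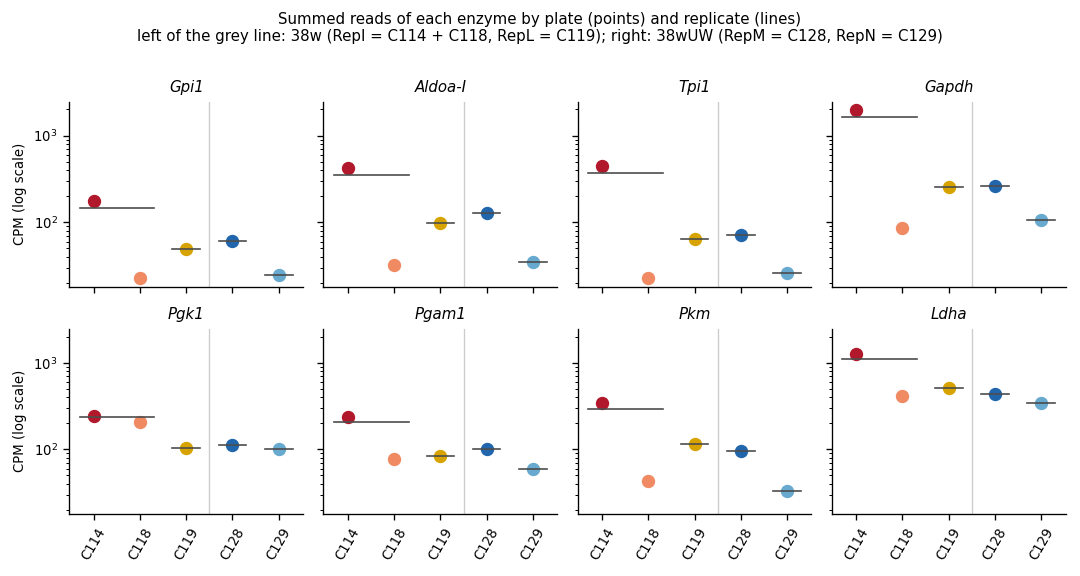
CPM of the summed reads (log axis) of each enzyme on the 5 plates (points) and in the 4 replicates (lines), with 38w left of the grey line and 38wUW right of it. Plate C114 is highest in all 8 panels, and plate C118 of the same replicate is the lowest plate for Gpi1, Aldoa-I, Tpi1 and Gapdh.

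None of the 8 enzymes passed the test between the groups. Counts summed per replicate were compared with edgeR's quasi-likelihood test, which called 0 of 11760 genes (0%) at an adjusted p under 0.05, with 949 genes (8.07%) at an unadjusted p under 0.05. The log2 difference, 38w minus 38wUW, was above 0 for all 8 members: 2.62 for Gapdh (SE 1.13, adjusted p = 0.617), 2.40 for Tpi1 (SE 1.01, adjusted p = 0.617), 1.91 for Pkm (SE 0.92, adjusted p = 0.625) and 1.72 for Aldoa-I (SE 0.97, adjusted p = 0.662). It was 1.45 for Gpi1 (SE 0.92), 1.30 for Ldha (SE 0.97), 1.10 for Pgam1 (SE 0.87) and 0.91 for Pgk1 (SE 0.85), with adjusted p from 0.691 to 0.782. The median of the 7 members found by name was 1.45 and that of all tested genes 0.12. Gapdh and Tpi1 had an unadjusted p of 0.0342 and 0.0316, among the 4.29% of genes that were below 0.05 with the higher value in 38w. DESeq2 called 83 genes (0.706%) and none of the members.

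The size of these differences turned on which replicate was left out, in both groups. Without RepL, the lone 38w replicate RepI is assumed to vary like the others, and 5 of the 8 members passed, where 6.35% of 12932 genes were called higher. They were Gapdh (log2 difference 3.49, adjusted p = 3.2e-05), Tpi1 (3.25, adjusted p = 0.00031), Pkm (2.51, adjusted p = 0.0081), Aldoa-I (2.45, adjusted p = 0.0089) and Gpi1 (2.12, adjusted p = 0.047). Without RepI, no member passed and the log2 differences ranged from 0.16 for Pgk1 to 1.08 for Pkm. Leaving out a 38wUW replicate moved them as well, with no member passing: Aldoa-I was at 2.97 without RepM and 1.05 without RepN, Tpi1 at 3.35 and 1.82, Pkm at 2.88 and 1.33, and Gpi1 at 2.27 and 0.93. With plate C114 left out and RepI kept as the 17 cells of C118, Gpi1 and Aldoa-I turned to -0.01 and -0.10, and Gapdh and Tpi1 were at 0.13 and 0.06. Pgk1 then had the largest difference, 0.80 (SE 0.67, adjusted p = 0.997).

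**Figure D2:**
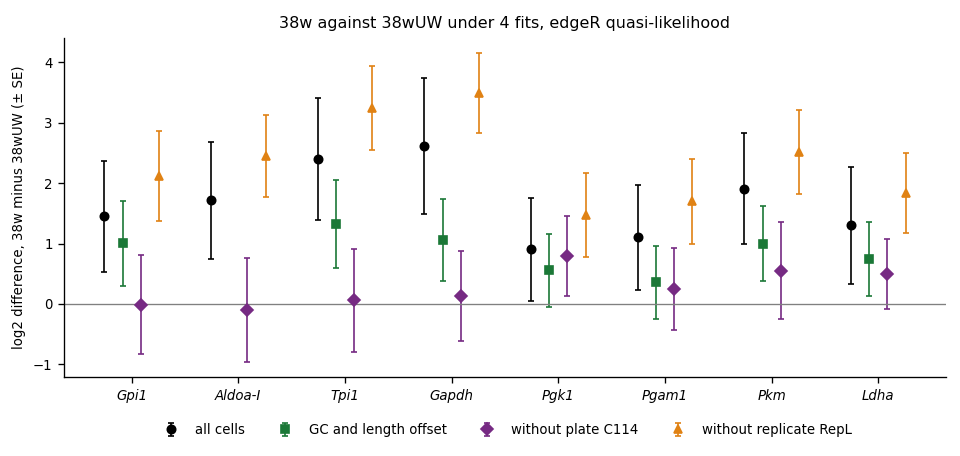
Log2 difference between 38w and 38wUW with its SE (bars) for each enzyme in 4 edgeR fits: all cells, with an offset for transcript GC content and length, without plate C114, and without replicate RepL. The Gapdh values run from 0.13 without plate C114 to 3.49 without RepL, and Aldoa-I has no GC and length value.

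Both plates of RepI carry the same replicate label, yet they lay far apart. Gapdh was at 1969 CPM on C114 and 86.0 on C118, a ratio of 22.9. Tpi1 was at 442 and 22.7 CPM (ratio 19.5), and Aldoa-I at 422 and 32.0 (ratio 13.2). The ratio was 7.87 for Pkm, 7.68 for Gpi1, 3.02 for Pgam1 and 3.004 for Ldha. Pgk1 differed least, with 242 CPM on C114 and 209 on C118, a ratio of 1.16. C114 was the highest of the 5 plates for all 8 genes, as it was for 26.0% of the 7460 genes with a mean of at least 10 CPM. Taking ribosomal protein and mitochondrial genes out of the totals left the ratio of Gapdh at 22.7 and that of Pgk1 at 1.15. The part that the high ribosomal protein share of C114 has in these values was not tested.

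The order of the 7 members by this ratio went in part with their GC content (rho 0.79 over 7 genes). Transcript GC content was 49.7% for Pgk1, 51.5% for Ldha, 52.8% for Pgam1, 53.5% for Tpi1 and Gpi1, 56.6% for Gapdh and 57.7% for Pkm, against a median of 47.9% over 7330 genes of at least 10 CPM. Across those genes, which are not independent replicates, the log2 ratio of C114 to C118 had a Spearman's rho of 0.61 with GC content and of -0.39 with transcript length. All 7 members were shorter than the median transcript of 3266 bases. In the order of all genes by that ratio Gapdh stood at percentile 97.9 and Tpi1 at 96.9, whereas Pgk1 stood at 60.4.

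The group comparison carried the same relation, since the log2 difference of all tested genes with a transcript sequence had a rho of 0.45 with GC content and -0.33 with length. An offset that removed each replicate's trend on both, added after the data were seen, brought these to 0.00 and -0.01. The differences were then 1.07 for Gapdh (SE 0.68), 1.32 for Tpi1 (SE 0.73), 1.003 for Gpi1 (SE 0.70) and 0.99 for Pkm (SE 0.62). They were 0.74 for Ldha (SE 0.61), 0.55 for Pgk1 (SE 0.60) and 0.36 for Pgam1 (SE 0.61). All 7 remained above 0, with adjusted p from 0.838 to 0.934, and the Gapdh difference was 1.07 in place of 2.62 on the log2 scale.

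Both a main and an alternative set of batch tags come with the cells, and the members behaved differently under them. By the main tag, C114 was set against C128, where the ratio of 38w to 38wUW was 7.49 for Gapdh, 2.87 for Ldha and 2.13 for Pgk1. The plates C118 and C119 were set against C129, with ratios of 2.06, 1.42 and 1.25, so that all 8 members were higher in 38w in both batches, as were 21.7% of the tested genes. By the alternative tag, C114 was set against C129, with a ratio of 18.8 for Gapdh, and C118 and C119 against C128, with a ratio of 0.824. In the latter batch 5 of the 8 members were lower in 38w (Gpi1, Aldoa-I, Tpi1, Gapdh and Pgam1), and Pgk1, Pkm and Ldha had ratios between 1.05 and 1.12. Each group has 1 or 2 plates per batch, so plate and group cannot be told apart within it.

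Reads of the pathway were present in every cell. All 310 cells had a read of at least 1 of the 7 enzymes, and 103 cells (33.2%) had reads of all 7, from 18.1% of cells on C129 to 73.6% on C114. Summed over the 7 enzymes, the share of all reads amounted to 0.398% for RepI and 0.118% for RepL, and to 0.1140% for RepM and 0.0692% for RepN. The plates of RepI differed, with 0.465% for C114 against 0.0875% for C118. The C114 value was not made by a few cells: 38 of its 53 cells exceeded 0.2497%, the 90th percentile of the 257 cells on the other plates, and 1 lay below their median of 0.0779%. The 13 columns of C114 with a suffix in their title had a median of 0.344% and the other 40 a median of 0.419%.

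Shares of cells with a read were compared at an equal depth of 20000 reads, which 33 cells did not reach. Ldha was then found in 94.1% and 85.7% of cells in the 38w replicates and in 92.2% and 88.0% in the 38wUW replicates, so the groups overlapped and the means were 89.9% and 90.1%. Tpi1 was found in 82.4%, 55.7%, 53.1% and 37.3% of cells, Gpi1 in 67.6%, 54.3%, 43.8% and 30.7%, and Pkm in 79.4%, 70.0%, 67.2% and 45.3%. For these 3 enzymes both 38w replicates lay above both 38wUW replicates, by 23.8, 23.8 and 18.4 percentage points between the group means, an arrangement that 9.84% of the 11760 tested genes had. The exact two-sided permutation test over replicates gave p = 0.3333 for each, the smallest value that 2 against 2 allows. With the suffixed columns left out, an alternative added after the data were seen, these 3 differences were 22.7, 24.0 and 18.0 points, and Pgam1 also had both 38w replicates above. For Gapdh, Aldoa-I, Pgam1 and Pgk1 the groups overlapped, with differences of 10.8, 15.6, 13.2 and 8.35 points. On the plates, Gapdh was found in 50 of 51 thinned cells of C114 (98.0%, Wilson 95% interval 89.7 to 99.7) and in 13 of 17 of C118 (76.5%, 52.7 to 90.4). Tpi1 was found in 49 of 51 cells of C114 (96.1%, 86.8 to 98.9) and in 7 of 17 of C118 (41.2%, 21.6 to 64.0), while Ldha was found in 94.1% of cells on both. Gpi1 was found in 78.4% of cells on C114 and 35.3% on C118, and Pkm in 94.1% and 35.3%. On C118 Gpi1, Tpi1 and Pkm were all below RepM, so their arrangement by group was not kept with RepI as C118 alone. These intervals cover counting error only.

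Per cell, Ldha was the most even of the enzymes outside C114. Its median over cells was 772 CPM on C114, 301 on C118, 295 on C119, 254 on C128 and 312 on C129. For Gapdh the medians were 1639, 70.6, 210, 183 and 82.8 CPM. For Pgk1 they were 127, 105, 33.3, 19.99 and 16.8 CPM, and its 25th percentile was 0 on C119, C128 and C129. Reads were unevenly spread over cells: the tenth of cells with the most Pgk1 reads held 69.2% of its reads on C119 and 69.7% on C129, and for Gapdh 46.4% on both. For Ldha the tenth with the most reads held 61.9% on C119 and 44.1% on C129.

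Cells with more reads of the enzymes also had more of ribosomal protein genes. The share of the 7 enzymes and the share of 88 ribosomal protein genes in a cell's reads had a Spearman's rho of 0.38 on C114, 0.63 on C118, 0.62 on C119, 0.53 on C128 and 0.36 on C129. With the number of reads per cell the rho ran from -0.29 to 0.00. With Slc2a1, the glucose transporter GLUT1, it was 0.41 on C128 and 0.01 to 0.05 on the other 4 plates. These are descriptions over cells that share a plate, and both shares are parts of the same total.

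**Figure D3:**
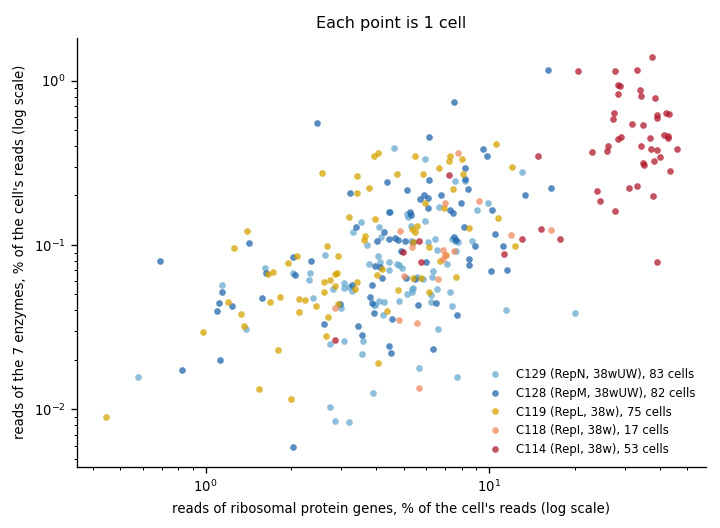
Share of the 7 enzymes against the share of ribosomal protein genes in the reads of each cell (both axes log), coloured by plate. Most cells of C114 sit at the upper right, at medians of 31.9% and 0.384%, apart from those of the other plates, and within each plate the points slope upwards (rho 0.36 to 0.63).

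Most pairs of the enzymes had a rho above 0 across cells, and no other gene pairs were compared. Over the 28 pairs of the 8 genes, in cells thinned to 20000 reads, the mean Spearman's rho within a plate was 0.33 on C114 (51 cells), 0.31 on C119 (70 cells) and 0.39 on C128 (64 cells). It was 0.20 on C118, which had 17 cells, and 0.11 on C129 (75 cells). All 28 pairs were above 0 on C119 and C128, and 23 to 27 on the other 3 plates. The closest pairs over the 5 plates were Gapdh with Ldha (mean rho 0.42, from 0.16 to 0.65 by plate), Gpi1 with Gapdh (0.40, from 0.32 to 0.52) and Tpi1 with Gapdh (0.39, from 0.17 to 0.71). Pkm with Ldha was at 0.39 (from 0.03 to 0.62). The loosest was Gpi1 with Pgam1 (0.14, from -0.04 to 0.27). Gapdh was part of 6 of the 8 closest pairs.

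**Figure D4:**
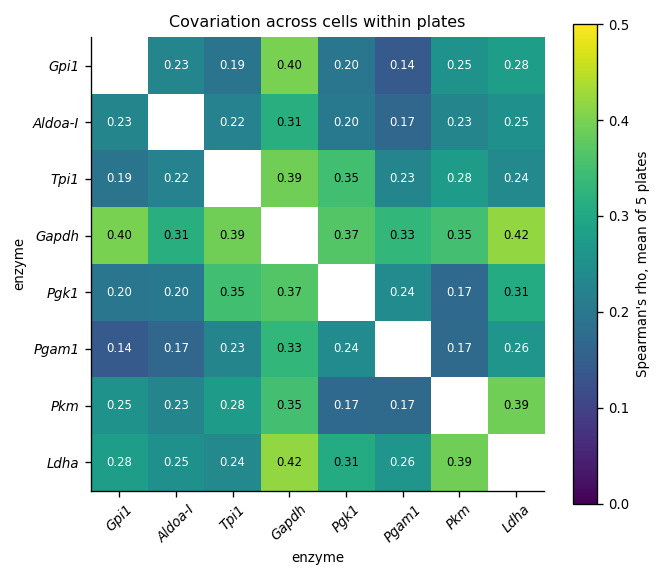
Spearman's rho between each pair of enzymes across thinned cells, as the mean of the 5 plates (colour and number). The row of Gapdh is the brightest, from 0.31 with Aldoa-I to 0.42 with Ldha, and Pgam1 is in 3 of the 4 lowest pairs, down to 0.14 with Gpi1.

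Likeness to the summed enzymes could be ranked only among the 518 genes with a read in at least 50% of the thinned cells of every plate, a filter that Gapdh and Ldha alone of the 8 enzymes passed. Those with the highest mean within-plate rho with the summed enzymes included Ppia (0.56), Rplp1 (0.54), Rps12 (0.51), Atp5b (0.50), Rpl18 (0.50), Anxa2 (0.50), Rplp0 (0.49), Rpl11 (0.49) and Rpl32 (0.49). Of these, 6 encode ribosomal proteins, Ppia is the peptidyl-prolyl isomerase cyclophilin A, and Atp5b is the catalytic subunit of the mitochondrial ATP synthase. The median over the 518 genes was 0.11. The values of Gapdh and Ldha, which are partly fixed because they enter the sum, were 0.54 and 0.48.

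Cells were also ordered by the best of 6 marker scores, scaled within each plate. This gave 73 cells of a basal and Transition-type profile, 60 interfollicular differentiated, 57 infundibular and duct differentiated, 49 junctional zone, 46 bulge and 25 sebocyte-like cells. By replicate (RepI, RepL, RepM, RepN), basal and Transition-type cells numbered 22, 23, 14 and 14, and interfollicular cells 18, 21, 10 and 11. Infundibular cells numbered 11, 8, 24 and 14, and junctional zone cells 10, 10, 13 and 16. Bulge-type cells numbered 4, 7, 16 and 19, and sebocyte-like cells 5, 6, 5 and 9. Since the scores were scaled within each plate, these counts cannot compare the make-up of the groups. The part of cell class in the group differences was not tested. The scores form a range and not separate types: in 78 cells (25.2%) the best score was within 0.25 of the next. The 7 enzymes summed to 2440 CPM in the basal and Transition-type cells (SD 2118 over 4 replicates) and to 894 CPM in the bulge-type cells (SD 455), the lowest mean of the 6. With the cells thinned to 20000 reads the bulge-type cells were at 1543 CPM and the infundibular cells were lowest with 1003 CPM, so the lowest place was not kept.

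The order of the classes changed between replicates. The basal and Transition-type cells were highest in RepI (5519 CPM) and RepL (1950). Lowest there were the bulge-type cells of RepI (1516 CPM, 4 cells) and the infundibular cells of RepL (430 CPM, 8 cells). In RepM the interfollicular cells were highest (1685 CPM) and the bulge-type cells lowest (708). In RepN the bulge-type cells were highest with 905 CPM and the sebocyte-like cells lowest with 481. No class was the highest in all 4 replicates for any of the 8 enzymes or for the sum. For Ldha the basal and Transition-type cells were highest in RepL (958 CPM) and RepN (461) and the interfollicular cells in RepI (1328) and RepM (728). The differences between replicates of a class were as large as those between classes, so no class is said to be higher.

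**Figure D5:**
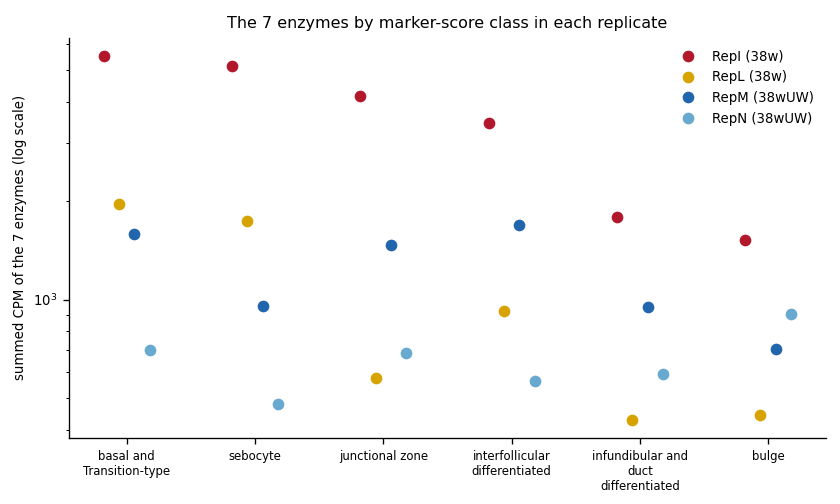
Summed CPM of the 7 enzymes (log axis) in 6 marker-score classes, with 1 point per replicate and the classes ordered by their mean. A point rests on 4 to 24 cells. RepI lies above the other replicates in all 6 classes, and the order of the remaining replicates changes from class to class.

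Other genes around the pathway, on lists drawn up beside the 8 enzymes, had log2 differences on both sides of 0, and none of them passed the test. Of 28 further enzymes and isoenzymes of glycolysis 16 were tested, with 8 above and 8 below 0 and a median log2 difference of 0.11. Enolase, the step between Pgam1 and Pkm, was divided over Eno1 and its near-identical retrogene Eno1b, whose reads cannot be told apart with certainty. Eno1 measured 430 and 59.7 CPM in 38w and 91.3 and 28.9 CPM in 38wUW (log2 difference 2.28, SE 1.05, adjusted p = 0.617), and -0.33 without C114. Eno1b was at 61.0, 121, 57.4 and 23.1 CPM. Eno1 took 88.7% of the reads of the pair on C114 and 33.1% to 61.4% on the other plates. For Pfkp and Hk2, kinases of the first steps, RepI was not the highest replicate. Pfkp, a phosphofructokinase, was at 35.4, 81.0, 47.2 and 100.05 CPM (log2 difference -0.09, SE 0.87). Hk2, a hexokinase, was at 18.5, 12.4, 23.4 and 35.3 (-0.67, SE 0.92). Of the reads of Hk1 and Hk2, Hk1 took 38.7% in RepI and 18.2% to 27.7% in the other replicates. Ldhb (0.52, SE 0.89) and Bpgm (0.30, SE 0.90) were below 50 CPM in every replicate. Of the lactate dehydrogenase reads Ldha took 91.6% to 98.5% by plate.

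Transporters of glucose, lactate and pyruvate split evenly, with 4 of the 8 tested above 0. Slc2a1 measured 40.9 and 152 CPM in 38w and 55.4 and 34.7 CPM in 38wUW (log2 difference 1.33, SE 0.91, adjusted p = 0.705), so that its highest library was RepL and not RepI. Bsg, the chaperone of the lactate transporters, was at 258, 80.8, 86.3 and 88.7 CPM (1.21, SE 0.88). The lactate transporter Slc16a1 had -1.20 (SE 0.97) and the glucose transporter Slc2a12 -0.78 (SE 1.02). Of 14 genes for the mitochondrial use of pyruvate 9 were above 0, with a median of 0.13. The pyruvate carrier subunits Mpc2 and Mpc1 were at 0.22 (SE 0.88) and -0.01 (SE 0.82), and Dld and Pdhb of the pyruvate dehydrogenase complex at 0.00 (SE 0.96) and -0.10 (SE 0.84). Without C114 Mpc2 was at 0.81, Mpc1 at 0.10, Dld at 0.48 and Pdhb at -0.42. C114 was the highest plate for 0 of these 14 genes and the lowest for 7.

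Of the 6 lists the pentose phosphate pathway had the highest median log2 difference, 1.01, with 7 of 8 genes above 0. Tkt, the transketolase, measured 152 and 55.3 CPM in 38w and 36.7 and 26.5 CPM in 38wUW (log2 difference 1.97, SE 0.90, adjusted p = 0.617). Pgls had 2.12 (SE 1.09), Taldo1 1.07 (SE 0.88) and Pgd 0.01 (SE 0.996), and without C114 these 4 genes lay between -0.70 and 0.39. Of 13 genes of gluconeogenesis and glycogen 7 were above 0, with a median of 0.05. Among them the glycerol-3-phosphate dehydrogenase Gpd2 had -2.57 (SE 1.02, adjusted p = 0.617), Ugp2 -1.38 (SE 0.89), Pygl 0.87 (SE 0.86) and Gbe1 0.87 (SE 0.93). Without C114 Gpd2 was at -2.68, Ugp2 at -0.60, Pygl at 1.62 and Gbe1 at 1.86.

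Of the transcription factors tied to the pathway, 4 of 5 were tested and all 4 were above 0. Hif1a, the alpha subunit of hypoxia-inducible factor 1, measured 52.0 and 174 CPM in 38w and 125 and 103 CPM in 38wUW (log2 difference 0.22, SE 0.87, adjusted p = 0.956). Its lowest plate was C114 with 15.1 CPM, the plate on which all 8 enzymes were highest, and on C118 it was at 224 CPM. Myc had 1.49 (SE 0.95), Arnt, the partner of Hif1a, 0.38 (SE 0.995) and Epas1 0.42 (SE 1.21), the last at under 4 CPM in every replicate. Without C114, where 0 genes were called, Hif1a was at 1.06, Myc at 0.78, Arnt at 1.69 and Epas1 at 0.68. With the GC and length offset Hif1a was at 0.78.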

How the data were processed

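Estimated counts for each gene in each cell were made by the authors with Salmon 0.13.1 from single-end Smart-seq2 reads. The labels name GRCm38 (mm10). No UMIs were used, and 3.60% of the values are not whole. Groups, replicates, plates and batch tags were taken from the sample labels. The 8 members and all gene lists were chosen with earlier results of these data known.

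Counts were summed per replicate, rounded and fitted with edgeR 4.0.16 (quasi-likelihood test, TMM, filterByExpr, Benjamini-Hochberg over all genes, threshold 0.05). The SE is the log2 difference divided by the square root of F. CPM divide a gene's summed reads by all reads. DESeq2 1.42.0 and limma 3.58.1 (on log2 of mean CPM + 1) served as alternatives, in R 4.3.3. Python 3.11.15 was used for the rest. Each kind of fit was run on counts simulated in the layout of the 4 replicates, with 1 fixed spread for all genes and not that of these data. The fits with a replicate left out, on plates or on subsets of cells were not simulated. The GC and length offset used loess on GC content and log2 length of the longest protein-coding transcript in GENCODE M21 (GRCm38). Correlations used log2(CPM + 1) within plates. Other genes were named by a rule: the 4 tested genes of each list with the highest mean CPM (6 for glycolysis), with Slc2a1 and Hif1a, and the 10 genes most alike, of which 1 is not reported here. No cells had identical columns.

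Alternatives were other scalings and filters, leaving out each replicate, plate C114 or C118, cells with a title suffix or with under 50000 reads, plates as units, batch blocks, and cells thinned to 20000 reads. Intergroup differences are on the scale set by TMM, on which the median of all genes was 0.12. The annotation used by the authors was Ensembl 101 per their methods, and coordinates come from GENCODE M21 of the same build.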

Additional observations from a re-analysis of the deposited data

How the results depend on the processing

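No paired analysis was possible because the groups share no replicate numbers, but the batch tags could serve as a replicate block. The count of 0 called genes became 83 with DESeq2, 1 without a low-count filter, 2 with mean CPM per cell, 5 with the batch tag as a block and 1 with the alternative batch tag as a block. Leaving out 1 replicate gave 0 to 1215 genes, with 169 without RepI and 1215 without RepL. Plates as units, thinning, other size factors, the removal of ribosomal protein and mitochondrial genes, and the subsets of cells gave 0, as did, both chosen after seeing the data, the GC and length offset and the batch sums without a block. The number of members above 0 was 8 in all of these except 6 without plate C114 and 7 of 7 with the offset.

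Without plate C114 the log2 differences of Gpi1 (-0.011), Aldoa-I (-0.10), Eno1 (-0.33), Pfkp (0.19), Ldhb (-0.46), Bsg (-0.27), Mpc1 (0.10), Pgls (-0.23) and Pgd (-0.70) reversed. With the GC and length offset those of Pfkp (0.16), Ldhb (-0.38), Bsg (-0.28), Mpc2 (-0.39), Pgls (-0.076) and Pgd (-0.65) did. The difference in the share of cells with a read reversed without plate C114 for Aldoa-I (-3.53 points) and Pkm (-3.61). It reversed for Ldha without thinning (1.16), at 10000 reads (3.78) and at a minimum of 5 reads (8.38), and without RepL (4.02), RepM (1.92) or the suffixed columns (0.062, chosen after seeing the data). Leaving out 1 replicate, it ranged from -4.38 to 4.02 for Ldha and from -2.64 (without RepI) to 19.3 for Pgk1. The cause of these changes was not tested. With cells thinned, the levels of the bulge-type cells moved for Gapdh (471 CPM), Pkm (136), Ldha (606) and the sum (1543). The mean covariation of the members kept its size without thinning and without C114. With 2 replicates per group and SEs near 1 on the log2 scale, only large differences could pass, and C118 rests on 17 cells.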
